A study of Mus musculus with 2 samples.

Results

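Plasmacytoid dendritic cells (pDCs) were picked out of tumour leukocytes by the messages they carry: 340 of 27362 kept cell barcodes were members, 179 from a library named Arg and 161 from a library named Control. A barcode was kept with at least 200 genes and at most 10% mitochondrial UMIs (unique molecular identifiers, each counting 1 captured mRNA). A member held at least 2 UMIs of Siglech, at least 5 UMIs summed over Siglech, Ccr9, Cox6a2 and Klk1, at most 1 UMI of the T cell genes Cd3d, Cd3e and Cd3g, at most 1 of the macrophage gene Adgre1 and at most 10 of the complement genes C1qa, C1qb and C1qc. The members were thus chosen by measured values of these genes, whose levels are given as description only.

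The Arg library came from BALB/c mice fed a diet lacking arginine with calories matched to the control diet, and the Control library from BALB/c mice fed the normal diet; that the name Arg stands for the arginine-deficient arm was read from the study's design, since the library's own label names no diet. In both arms mice were assigned at 5 weeks of age, ate their diet for 1 week and then received CT26, an established mouse colorectal carcinoma line, under the skin, and tumours were collected on day 20. Tumours were digested with enzymes, CD45-positive leukocytes were pulled out with magnetic beads, and single cells were captured in droplets with 10x Genomics 3′ v3 chemistry. Each diet had 1 library, and the number and sex of the mice behind it are not given in the sources used here. Diet therefore cannot be told apart from library, animal or handling, no test between diets was possible, and intervals cover counting error only.

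pDCs are a rare dendritic lineage that patrols blood and tissues, senses nucleic acids in endosomes through TLR7 and TLR9, and can release type I interferon in large amounts. Their identity is maintained by the E protein TCF4 together with IRF8, SPIB, RUNX2 and BCL11A. In tumours they are also known for weak antigen presentation and for ligands that restrain or stimulate T cells.

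The rule genes sit at separate places in the genome. In GRCm38, Siglech, a sialic acid-binding lectin of the pDC surface, spans chr7:55768178-55778925 on the plus strand, and Ccr9, the gut- and thymus-homing chemokine receptor, spans chr9:123678439-123784330 on the plus strand. Klk1, a tissue kallikrein, spans chr7:44225360-44229618 on the plus strand, and Cox6a2, a cytochrome c oxidase subunit otherwise typical of striated muscle, spans chr7:128205435-128206387 on the minus strand. The RefSeq promoter windows (GRCm38.p6, 250 bases before to 50 after the start) of Siglech, Ccr9 and Klk1 are shown because TCF4 binds E-boxes and these genes mark the cells; capitals mark CACCTG or CAGCTG, searched on both strands (CAGCTG is its own reverse complement).
Siglech: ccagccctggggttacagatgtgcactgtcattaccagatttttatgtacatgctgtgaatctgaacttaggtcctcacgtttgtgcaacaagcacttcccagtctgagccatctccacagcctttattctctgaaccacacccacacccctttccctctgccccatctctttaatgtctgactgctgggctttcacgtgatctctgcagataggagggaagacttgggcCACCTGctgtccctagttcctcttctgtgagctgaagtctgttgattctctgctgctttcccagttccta
Ccr9: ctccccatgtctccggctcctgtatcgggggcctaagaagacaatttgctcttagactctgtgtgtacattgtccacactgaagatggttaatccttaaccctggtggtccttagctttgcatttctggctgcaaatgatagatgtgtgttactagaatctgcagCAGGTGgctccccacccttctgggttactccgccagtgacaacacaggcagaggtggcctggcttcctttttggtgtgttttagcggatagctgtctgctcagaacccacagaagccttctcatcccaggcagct
Klk1: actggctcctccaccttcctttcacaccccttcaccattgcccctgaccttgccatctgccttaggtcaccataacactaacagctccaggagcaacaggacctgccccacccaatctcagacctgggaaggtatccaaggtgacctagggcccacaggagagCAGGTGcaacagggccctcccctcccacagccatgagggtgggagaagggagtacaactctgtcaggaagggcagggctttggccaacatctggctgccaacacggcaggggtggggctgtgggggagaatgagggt
Each of the 3 windows held 1 CACCTG and no CAGCTG, whose first base lay at -20 in Siglech, -85 in Ccr9 and -87 in Klk1 counted from the start base as 0. The Ccr9 window lies at chr9:123766961-123767260, inside the gene span given above and not at its first base. Among 32851 promoter windows of the same length, 20.2% held CACCTG, 16.3% held CAGCTG and 32.9% held either, so a match is common and is a description of letters only.

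Members were similarly frequent in both libraries. They made up 1.29% of kept Arg barcodes (179 of 13875; 95% exact binomial interval 1.11 to 1.49) and 1.19% of kept Control barcodes (161 of 13487; 1.02 to 1.39). The ratio of Arg over Control was 1.08, with a counting interval of 0.869 to 1.35. Among barcodes with a UMI of Ptprc, the gene for CD45, the shares were 1.44% in Arg and 1.43% in Control. Among gated dendritic cells, members were 32.4% in Arg (179 of 553) and 37.9% in Control (161 of 425), a ratio of 0.854 (0.687 to 1.06); type 2 conventional dendritic cells numbered 166 in Arg and 75 in Control. Fewer cells of a type and poorer recovery of that type cannot be told apart.

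Few barcodes lay close to the limits. With Siglech at 2 or more, 1 Arg and 1 Control barcode summed to exactly 4 over the rule genes, just outside, and 2 Arg and 0 Control barcodes summed to exactly 5, just inside. With a sum of 5 or more, 9 Arg and 4 Control barcodes held exactly 1 Siglech UMI, just outside, and 4 Arg and 2 Control barcodes held exactly 2, just inside. A further 53 Arg and 8 Control barcodes reached the sum with no Siglech UMI, through Cox6a2 above all (440 UMIs in Arg, 42 in Control). Before the limits on other lineages 224 Arg and 188 Control barcodes qualified, and 195 and 172 were left after the T cell limit. No barcode that passed the gene limits was lost to the mitochondrial limit.

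Members held a median of 10066 UMIs and 3381 genes in Arg and 8829 UMIs and 3060 genes in Control, against 8562.5 UMIs in all other Arg barcodes and 10433 in all other Control barcodes. Median mitochondrial shares were 2.04% of UMIs in Arg members and 1.90% in Control members. Their summed UMIs, 2024456 in Arg and 1665050 in Control, are the base of the levels below, in CPM (a gene's UMIs per 1000000 UMIs of the members). Counts come from the 3′ end and say nothing of levels between genes. The libraries shared 44 barcode sequences, 1 of them a member in Arg and 1 a member in Control.

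Some members carried RNA of another cell type. By marker limits chosen after seeing the data, 23 Arg and 13 Control members were mixed, 11 and 0 of them with NK cell genes, 7 and 1 with T cell genes, 6 and 6 with macrophage or monocyte genes and 2 and 5 with fibroblast genes. Summed NK and killer granule genes reached 2999 CPM in Arg members and 203 CPM in Control members, with all 10 measured genes of that list higher in Arg; without the mixed members the sums were 238 and 226 CPM. A single Arg member of 56410 UMIs held 1016 of the 1178 Gzmd UMIs and 637 of the 791 Gzmb UMIs, so these granzyme levels are not given as pDC levels. The doublet caller Scrublet marked 13 Arg and 11 Control members. Results that changed without the mixed members are given both ways; the part of mixed RNA in the other results was not tested.

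Marker lists of other cell types differed by less than the NK list did. B and plasma cell genes summed to 1060.04 CPM in Arg members and 933 CPM in Control members. The B cell gene Ms4a1 had 0 UMIs in both. Igkc, an immunoglobulin kappa constant gene, stood at 509 CPM in Arg members and 531 CPM in Control members, against 696 and 217 CPM outside. It had UMIs in 119 Arg and 96 Control members. Conventional dendritic cell genes summed to 903 CPM in Arg members and 738 CPM in Control members. The type 1 marker Xcr1 had 0 UMIs in both, but other markers of that list were present. Clec9a, also a type 1 marker, stood at 64.7 CPM in Arg members and 67.3 CPM in Control members, against 10.4 and 7.92 CPM outside. The type 2 marker Cd209a stood at 62.7 and 78.1 CPM in Arg and Control members, against 21.7 and 7.82 CPM outside. T cell genes summed to 310.2 CPM in Arg members and 271 CPM in Control members, but single genes went in opposite directions. Of the 3 measured genes of that list, 2 were higher and 1 was lower in Arg. The lower one was Cd8b1, at 112 CPM in Arg members and 190 CPM in Control members, with UMIs in 72 and 83 members. Il2rb was higher in Arg, with a fold of 6.17. Without the mixed members the T cell list summed to 207 CPM in Arg members and 291 CPM in Control members. Myeloid lists were slightly lower in Arg: macrophage genes summed to 1929 CPM in Arg members and 2124 CPM in Control members, and monocyte genes to 1782 and 2229 CPM. Tumour and epithelial genes summed to 2375 CPM in Arg members and 3601 CPM in Control members, and stromal genes to 1057 and 524 CPM. Several of these sums rest in part on genes found in most members. S100a6, of the tumour list, stood at 1185 CPM in Arg members and 1810 CPM in Control members, with UMIs in 171 and 153 members. Ly6c2, of the monocyte list, stood at 1011 and 978 CPM, and Mzb1, of the B and plasma cell list, at 503 and 375 CPM. In Arg, 1 member held 411 of the 419 Col1a1 UMIs and 1 held 381 of the 385 Col3a1 UMIs, both stromal genes. How far the sums reflect other cells was not tested.

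Siglech, as chosen, stood at 1391 CPM in Arg members and 1264 CPM in Control members, with medians of 15 and 12 UMIs per member. Ccr9 stood at 1474 CPM in Arg members and 1232 CPM in Control members, Cox6a2 at 1116 and 826 CPM, and Klk1 at 1754 and 1411 CPM. All 4 were under 10 CPM outside the members in both libraries, which the rule itself brings about.

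Markers that the rule did not use bore the label out. Of 41 such genes fixed for pDCs, 39 averaged at least 20 CPM over both libraries (2 did not), and 38 of the 39 were higher in members than in all other barcodes of both libraries; Nrp1, a semaphorin co-receptor, was the exception. Bst2, the tetherin recognised by the pDC antibody PDCA-1, stood at 3442 CPM in Arg members and 4007 CPM in Control members, against 496 and 650.0 CPM in the other barcodes of the same libraries. Tcf4 stood at 3392 CPM in Arg members and 3356 CPM in Control members, against 153 and 159 CPM outside. Spib, an ETS factor of pDCs and B cells, stood at 171 CPM in Arg members and 208 CPM in Control members, against 1.19 and 0.644 CPM outside. These contrasts are between barcodes gated on the same transcriptomes and carry no test.

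**Figure D1:**
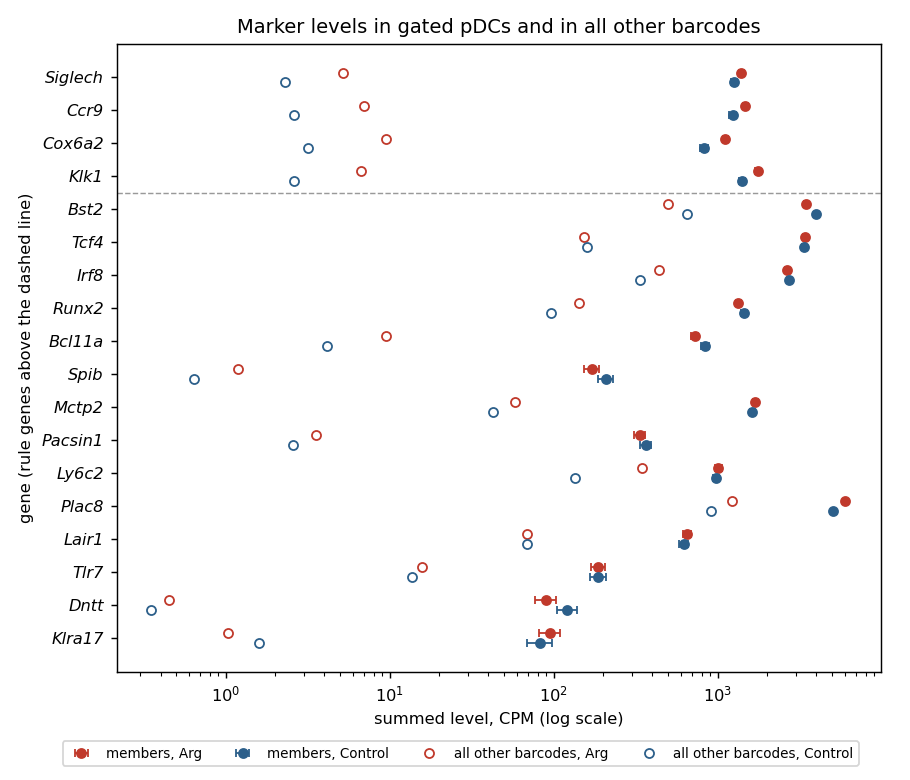
Summed levels in CPM on a log scale (x axis) of the 4 rule genes and 14 pDC markers outside the rule (y axis), in members (filled, with 95% Poisson intervals) and in all other barcodes (open), Arg in red and Control in blue. Each gene is higher in members than outside in both libraries, and the Arg and Control members lie close together, as for Tcf4 at 3392 and 3356 CPM.

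The genes that set members furthest apart from the rest were ranked. By a fixed rule on the lower of both libraries' ratios, the first was Grm8, a metabotropic glutamate receptor, at 1029 CPM in Arg members and 1276 CPM in Control members, against 5.04 and 5.03 CPM outside. Cacna1e, a voltage-gated calcium channel subunit, and Gria3, an AMPA glutamate receptor subunit, were also among the first 20, as were Pacsin1, a membrane-bending protein of neurons and pDCs, and Tmem108. Among B-lineage genes in that set, Blnk, an adaptor of the B cell receptor, stood at 698 CPM in Arg members and 795 CPM in Control members, against 14.3 and 20.0 CPM outside. Mzb1, a chaperone of secretory B cells and pDCs, stood at 503 CPM in Arg members and 375 CPM in Control members, and Iglc3, an immunoglobulin lambda constant gene, at 435 and 497 CPM. Klk1b27 also ranked in the first 20 but belongs to the kallikrein cluster of near-identical copies beside Klk1, so the split of reads between them is uncertain.

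Lymphoid genes were detected in members without a common shift between diets. Of 22 lymphoid genes, 12 were measured, 4 higher and 8 lower in Arg, with a median log2 ratio of -0.12, and 1 in each direction was past 1.5-fold. The lower one was Iglc2, at 193 CPM in Arg members and 311 CPM in Control members, whose near-identical copy Iglc3 makes the split of reads uncertain. Dntt, the template-independent DNA polymerase of antigen receptor joining, was seen at 89.4 CPM in Arg members and 120.1 CPM in Control members, against 0.449 and 0.353 CPM outside. After thinning each cell to 2000 UMIs, 17.4% of 178 Arg members and 22.4% of 161 Control members held a Dntt UMI (40.2% and 47.2% unthinned), against 0.221% of 2260 Arg T cells and 0.0418% of 2394 Control T cells. Il7r, the interleukin 7 receptor, stood at 877 CPM in Arg members and 809 CPM in Control members. Jchain, the joining chain of IgM and IgA, was the gene past 1.5-fold higher, at 28.2 CPM in Arg members and 13.8 CPM in Control members; it stood at 117 and 22.2 CPM outside the members, and whether RNA from other cells contributes was not tested.

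Arg and Control members were compared over 3547 genes averaging at least 50 CPM, on the log2 scale after adding 5 CPM. Of these, 55 (1.55%) were at least 1.5-fold higher in Arg and 128 (3.61%) at least 1.5-fold lower, 183 (5.16%) either way. After thinning members to 2000 UMIs the counts were 245 higher and 228 lower, so the direction with more genes differed between these settings. Of the 3547 genes, 1978 were higher and 1569 lower in Arg by any amount. The median log2 ratio was 0.03. For gene lists the floor was 20 CPM, where 186 of 6201 genes (3.0%) were 1.5-fold higher and 246 (3.97%) 1.5-fold lower, 6.97% either way, with a median of 0.04. List counts below are to be read against these shares.

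Markers of pDC identity differed little between diets, while most measured transcription factors of pDC identity were lower in Arg. Of the 39 measured markers outside the rule, 21 were higher and 18 lower in Arg, with a median log2 ratio of 0.02, and 1 was past 1.5-fold, Cd300c, an activating surface receptor, at 32.1 CPM in Arg members and 18.6 CPM in Control members, which without the mixed members stood at 33.3 and 21.7 CPM, within 1.5-fold on this scale. Among 17 measured transcription factors of pDC identity, 13 were lower and 4 higher, with a median of -0.21, and 3 were past 1.5-fold lower (17.6% against 3.97% of all genes); without the mixed members 2 were. These were Bcl6, a repressor, at 26.7 CPM in Arg members and 55.9 CPM in Control members, Irf4, an interferon regulatory factor, at 31.1 and 51.0 CPM, and Mycl, a MYC paralogue of dendritic cells, at 39.0 and 61.3 CPM. The factors with high levels stayed within 1.5-fold. Irf8 stood at 2633 CPM in Arg members and 2739 CPM in Control members, Runx2 at 1338 and 1450.4 CPM, and Bcl11a at 726 and 838 CPM. Zeb2, a repressor needed for pDC development, stood at 657 and 931 CPM (fold 0.706, 0.656 to 0.760).

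Immediate early and stress genes were lower in Arg members. This list holds transcription factors and feedback regulators switched on rapidly by a stimulus, and heat shock chaperones; such genes are also known to be induced during enzymatic tissue digestion. Of 30 genes, 29 were measured, 28 were lower in Arg, and 23 were past 1.5-fold lower (3.97% of all genes were), with a median log2 ratio of -1.07. Without the mixed members, 27 of 28 measured genes were lower, 23 past 1.5-fold, with a median of -1.17. The list summed to 1.01% of UMIs in Arg members and 2.18% in Control members.

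The AP-1 genes encode proteins that pair into a transcription factor. Jun stood at 487 CPM in Arg members and 2071 CPM in Control members (fold 0.235, 0.219 to 0.253). Fos stood at 902 CPM in Arg members and 2456 CPM in Control members (fold 0.367, 0.348 to 0.388). Fosb stood at 146 CPM in Arg members and 663 CPM in Control members (fold 0.220, 0.193 to 0.250). All 3 were several times lower in Arg, with intervals far from 1. Junb and Jund, the remaining JUN proteins, stood at 466 and 968 CPM in Arg members, against 1016 and 2002 CPM in Control members.

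Other transcriptional regulators and feedback genes followed. Klf2, a quiescence and trafficking factor, stood at 356 CPM in Arg members and 1105 CPM in Control members (fold 0.322, 0.295 to 0.351). Egr1, an early growth response factor, stood at 106 CPM in Arg members and 525 CPM in Control members (fold 0.201, 0.173 to 0.234). Ier2, an immediate early protein, gave the lowest ratio among genes named by rule, at 104 CPM in Arg members and 497 CPM in Control members (fold 0.209, 0.178 to 0.243). Inhibitors of NF-kB signalling were also lower: Nfkbia stood at 343 CPM in Arg members and 959 CPM in Control members, and Tnfaip3, the ubiquitin-editing enzyme A20, at 137 and 387 CPM. Dusp1, a MAP kinase phosphatase, stood at 163 CPM in Arg members and 429 CPM in Control members. The single measured gene of the list that was higher was Dusp2, a related phosphatase, at 46.9 CPM in Arg members and 23.4 CPM in Control members, with 31.6% of its Arg UMIs in 1 member; without the mixed members it stood at 18.3 and 17.9 CPM.

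Heat shock genes were lower as well, the inducible ones most. Dnajb1, an HSP40 co-chaperone, stood at 68.2 CPM in Arg members and 320.1 CPM in Control members (fold 0.213, 0.175 to 0.257). Hspa1a, the inducible HSP70, stood at 13.8 CPM in Arg members and 119.5 CPM in Control members (fold 0.116, 0.0750 to 0.172). Hspa8, its constitutive relative, stood at 766 CPM in Arg members and 1123 CPM in Control members (fold 0.682, 0.637 to 0.730). The near-identical copies Hspa1a and Hspa1b may share reads, and Hspa1b stood at 21.2 CPM in Arg members and 74.5 CPM in Control members.

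**Figure D2:**
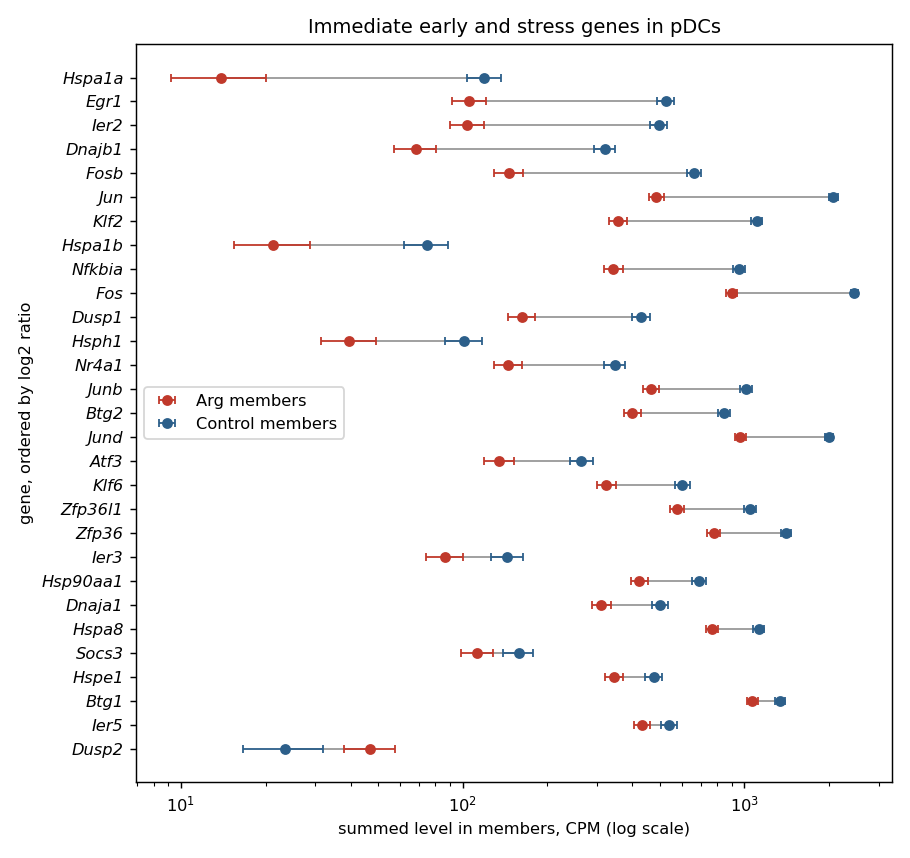
Summed levels in members in CPM on a log scale (x axis) of the 29 measured immediate early and stress genes (y axis), Arg in red and Control in blue, with 95% Poisson intervals. The Arg point lies left of the Control point for 28 genes, and Dusp2 at the bottom is the exception.

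The difference was spread over many cells. After thinning to 2000 UMIs, with 1 shallower Arg member left out, the list took a median of 0.85% of a member's UMIs in Arg and 1.70% in Control. Members at 2% or more were 11 of 178 in Arg (6.18%, exact interval 3.12 to 10.8) and 74 of 161 in Control (46.0%, 38.1 to 54.0). At 3% or more the counts were 2 in Arg and 43 in Control. The libraries overlap at the low end, and the high end was nearly all Control. A Fosb UMI was found in 41 of 178 thinned Arg members and 82 of 161 thinned Control members (48.0% and 80.1% unthinned), while 22.96% of thinned Arg T cells and 26.3% of thinned Control T cells held one.

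**Figure D3:**
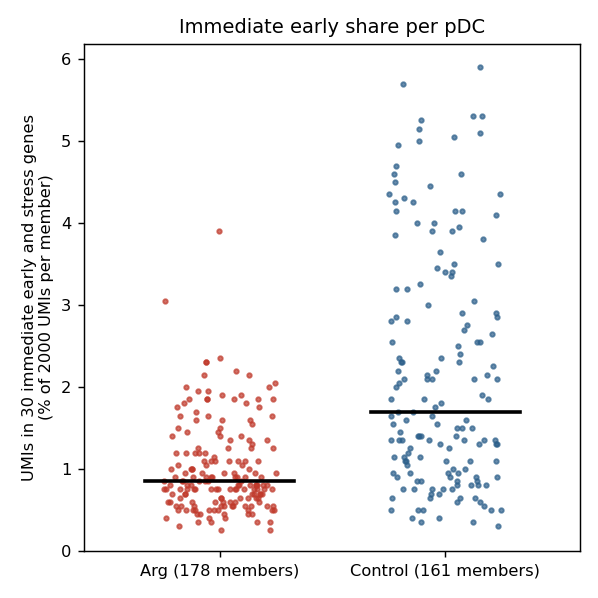
Share of a member's UMIs in the 30 immediate early and stress genes, in percent of 2000 UMIs (y axis), 1 point per member, 178 in Arg and 161 in Control; black lines are medians, 0.85% and 1.70%. Arg points lie mostly below 2%, and 74 Control points lie at or above it.

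Other dendritic cells showed a difference of the same sign, with a smaller list median. The list's median log2 ratio was -0.66 in type 1 conventional dendritic cells, -0.63 in type 2 and -0.65 in mature dendritic cells. It was -0.24 in NK cells, -0.24 in macrophages, -0.26 in neutrophils and -0.11 in T cells, and -0.14 over all barcodes outside the members. Jun stood at 251 CPM in Arg and 724 CPM in Control type 1 cells, while Fos stood at 1523 and 2624 CPM. Single genes did not all follow the medians. The log2 ratio of Klf2 was -1.62 in members, -1.75 in type 1, -2.47 in type 2 and -2.65 in mature dendritic cells, and -1.51 in all other barcodes. That of Jun was -2.08 in members and -2.04 in mature dendritic cells. All classes came from the same 2 libraries, so these values are not independent of each other, and the difference between classes was not tested. Median UMIs per member and mitochondrial shares were slightly higher in Arg, as given above; their part in the result was not tested.

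The cytokine genes Tnf and Il12a were lower in Arg members. Il1b, encoding interleukin 1 beta, stood at 319.6 CPM in Arg members and 348 CPM in Control members (fold 0.917, 0.819 to 1.03). Outside the members Il1b stood higher, at 1709 CPM in Arg and 1041 CPM in Control. A single member held 18.2% of the members' Il1b UMIs in Arg and another 24.7% in Control. Tnf, encoding tumour necrosis factor, stood at 129 CPM in Arg members (262 UMIs) and 427 CPM in Control members (711 UMIs), a fold of 0.303 (0.262 to 0.350). In all other barcodes Tnf stood at 59.1 CPM in Arg and 41.5 CPM in Control, so the sign was opposite there. Conventional dendritic cells had the members' sign, with 53.7 CPM in Arg and 103 CPM in Control type 2 cells, and 24.5 and 32.0 CPM in type 1. Mature dendritic cells did not, at 62.1 CPM in Arg and 34.0 CPM in Control. Whether the difference was larger in members than in other dendritic cells was not tested. After thinning, 8.99% of Arg members (5.23 to 14.2) and 24.2% of Control members (17.8 to 31.6) held a Tnf UMI (24.6% and 41.0% unthinned), beside 10.5% of Arg T cells and 5.85% of Control T cells, which can express it. Control members with a Tnf UMI had a median immediate early share of 3.25%, against 1.38% in those without; in Arg the medians were 1.23% and 0.80%.

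Il12a (chr3:68690644-68698547, plus strand, GRCm38), the p35 subunit of interleukin 12, was far higher in members than outside. It stood at 46.4 CPM in Arg members (94 UMIs) and 119.5 CPM in Control members (199 UMIs), against 1.07 and 0.532 CPM outside, and the fold was 0.389 (0.301 to 0.499). Thinned shares with a UMI were 10.1% in Arg (6.10 to 15.5) and 18.0% in Control (12.4 to 24.8), with 24.0% and 42.2% unthinned, beside 0.0442% of 2260 Arg T cells and 0.189% of 529 Control NK cells. Its partner Il12b, the p40 subunit, had no UMI in any member. Members with and without an Il12a UMI had similar median immediate early shares in Arg, 0.80% and 0.85%, and 2.05% and 1.68% in Control.

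The chemokine list had 11 of 15 genes measured, 3 higher and 8 lower in Arg, with 3 past 1.5-fold higher (3.0% of all genes) and 5 past 1.5-fold lower (3.97%) and a median log2 ratio of -0.57. Ccl4, an inflammatory chemokine, stood at 3856 CPM in Arg members and 6433 CPM in Control members (fold 0.599, 0.582 to 0.617), against 1717 and 1929 CPM outside. Its relative Ccl3 stood at 184 CPM in Arg members and 317 CPM in Control members (fold 0.582, 0.508 to 0.666). Ccl4 followed the immediate early share across members, with Spearman's rho of 0.39 over 178 Arg members and 0.67 over 161 Control members, each within 1 library and at equal thinned depth, as a description. Several other chemokines rested on single barcodes: 283 of the 519 Ccl2 UMIs in Control and 180 of the 235 Cxcl9 UMIs in Arg lay in 1 member each. Without the mixed members 8 chemokines were measured, 3 higher and 5 lower, with a median of -0.33. With no exclusion of other lineages the median turned to 0.48.

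**Figure D4:**
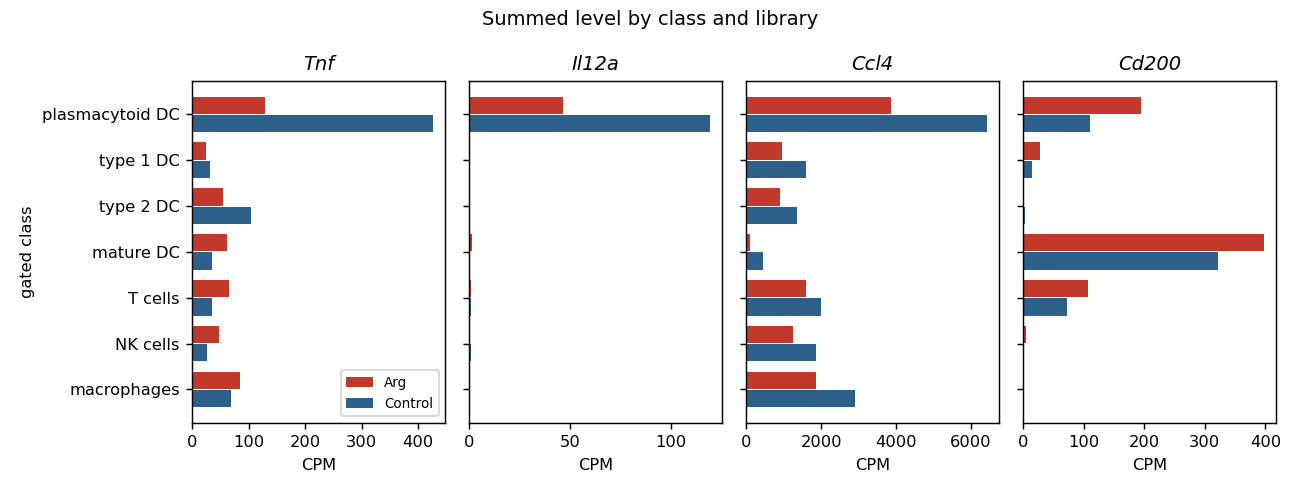
Summed levels in CPM (x axes, from 0) of Tnf, Il12a, Ccl4 and Cd200 in 7 gated classes (y axis), Arg in red above Control in blue, 1 library each and no error bars. Members hold the highest Tnf, Il12a and Ccl4 of these 7 classes in both libraries, and Cd200 is higher in Arg than in Control members, at 195 and 111 CPM.

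Interferon genes, the hallmark of stimulated pDCs, were seen in few members. No Arg member held a UMI of Ifnb1 or of any Ifna gene, which at this depth allows up to 1.68% of 179 members to hold a detected UMI and sets no limit on members expressing the genes; 2 Arg members held 1 Ifnl2 UMI each. In Control, Ifnb1 (chr4:88522025-88522774, minus strand, GRCm38) gave 65 UMIs in 5 members, with 26, 24, 11, 3 and 1 UMIs, and Ifna2 gave 17 UMIs in 3 members, all of which also held Ifnb1; 3 further members held 1 Ifnk UMI each. Any interferon UMI was found in 2 of 179 Arg members (1.12%, exact interval 0.136 to 3.98) and 8 of 161 Control members (4.97%, 2.17 to 9.56). The intervals overlap. The 5 Control members with Ifnb1 held between 19 and 41 Tnf UMIs each. Outside the members Ifnb1 gave 144 UMIs in 51 Arg barcodes and 274 UMIs in 46 Control barcodes, so the gene was not limited to pDCs.

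Most genes of the sensing machinery were measured in members, but Tlr9 was scarce. Of 27 genes of endosomal nucleic acid sensing, 24 were measured, 15 higher and 9 lower in Arg, none past 1.5-fold, with a median of 0.14. Tlr7, the endosomal receptor for single-stranded RNA, stood at 187 CPM in Arg members and 186 CPM in Control members, against 15.7 and 13.6 CPM outside. Unc93b1, which carries the receptors to endosomes, stood at 605 and 630.0 CPM in Arg and Control members. Irf7, the interferon-inducing factor downstream, stood at 238 CPM in Arg members and 274 CPM in Control members (fold 0.867, 0.762 to 0.988). Tlr9, the DNA receptor, fell below the floor of 20 CPM, with 5 UMIs in 5 Arg members and 10 UMIs in 10 Control members. Of the 24 measured genes, 13 were higher in members than in the other barcodes of both libraries.

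Lists of interferon-induced genes differed in direction. Of 35 genes induced by type I interferon, 20 were measured, 17 lower and 3 higher in Arg, 7 past 1.5-fold lower (35.0%, against 3.97% of all genes), with a median of -0.22. Isg15, a ubiquitin-like modifier, stood at 88.9 CPM in Arg members and 157 CPM in Control members (fold 0.567, 0.466 to 0.688), and Slfn5, a schlafen protein, at 55.3 and 112 CPM. Without the mixed members 18 of 20 were lower, 4 past 1.5-fold, with a median of -0.17. Ifitm3, a membrane protein that blocks viral entry, shows the difference: it stood at 312 CPM in Arg members and 532 CPM in Control members, but at 122 and 135 CPM without the mixed members. In all other barcodes, a mix whose cell types differ between the libraries, the same list had a median of 0.39.

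Genes induced mainly by interferon gamma leaned the other way. Of 28, 21 were measured, 19 higher and 2 lower in Arg, 6 past 1.5-fold higher (28.6%, against 3.0% of all genes), with a median of 0.41. Without the mixed members 14 of 18 were higher, 4 past 1.5-fold, with a median of 0.22. Ifi47, an interferon-inducible GTPase, stood at 134 CPM in Arg members and 82.9 CPM in Control members (fold 1.62, 1.32 to 2.004), and at 138 and 83.7 CPM without the mixed members. Iigp1, a related GTPase, stood at 254 CPM in Arg members and 165 CPM in Control members, and at 198 and 169 CPM without the mixed members. The list's median was 0.67 in all other barcodes and 0.73 in macrophages. Only 2 of the 21 measured genes were higher in members than in the other barcodes of both libraries. Outside the members Ifi47 stood at 168 CPM in Arg and 95.2 CPM in Control, and Iigp1 at 379 and 230 CPM. Whether RNA from other cells contributes was not tested.

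Antigen presentation in members differed little. Of 15 MHC class II genes 10 were measured, 4 higher and 6 lower, none past 1.5-fold, with a median of -0.04, while the same list had a median of 0.00 in type 1 and 0.29 in type 2 conventional dendritic cells and 1.02 in all other barcodes. H2-Aa, a class II alpha chain, stood at 1309 CPM in Arg members and 1349 CPM in Control members, against 2845 and 1160.3 CPM outside. All 23 MHC class I genes were measured, 21 higher and 2 lower in Arg, none past 1.5-fold, with a median of 0.14; without the mixed members 17 were higher and 6 lower. Tap1, the peptide transporter subunit, stood at 102 CPM in Arg members and 69.7 CPM in Control members (fold 1.47, 1.16 to 1.86).

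Among genes higher in Arg members, Socs2, a suppressor of cytokine signalling, had the highest ratio among genes named by rule, at 86.9 CPM in Arg members (176 UMIs) and 15.6 CPM in Control members (26 UMIs), a fold of 5.57 (3.67 to 8.76). A Socs2 UMI was found in 32.4% of Arg members and 8.07% of Control members, and after thinning in 11.8% and 3.73%, beside 2.37% of Arg NK cells and 1.89% of Control NK cells. Mature dendritic cells held far more, 603 CPM in Arg and 476 CPM in Control. Socs2 was also higher in Arg in all other barcodes, at 28.1 CPM in Arg and 15.4 CPM in Control. Type 1 conventional dendritic cells held 26.3 CPM in Arg and 6.47 CPM in Control, and T cells 42.4 and 24.0 CPM. Whether the difference was larger in members was not tested. Clec10a, a galactose-type lectin, stood at 260.3 CPM in Arg members and 126 CPM in Control members (fold 2.07, 1.76 to 2.45), whereas type 2 conventional dendritic cells held 259.8 and 266 CPM. Eya1, a transcriptional co-activator and phosphatase, stood at 69.6 CPM in Arg members and 37.2 CPM in Control members, against 5.42 and 5.30 CPM outside. Rbm3, a cold-inducible RNA-binding protein, stood at 1201 CPM in Arg members and 706 CPM in Control members (fold 1.70, 1.59 to 1.83), and in all other barcodes at 1152 and 887 CPM.

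Cd200, a ligand that restrains myeloid cells through its receptor and that the study's title names on CD8 T cells, lies at chr16:45382135-45409053 on the minus strand (GRCm38). It stood at 195 CPM in Arg members (394 UMIs) and 111 CPM in Control members (184 UMIs), a fold of 1.76 (1.47 to 2.11). A UMI was found in 68.7% of Arg members and 55.9% of Control members, and after thinning in 57 of 178 Arg members (32.0%, 25.2 to 39.4) and 21 of 161 Control members (13.04%, 8.26 to 19.2), beside 0.678% of Arg NK cells and 0.189% of Control NK cells. In gated T cells Cd200 stood at 107 CPM in Arg and 72.9 CPM in Control. Levels in members were above those in T cells in both libraries. They were below those in mature dendritic cells, at 398 CPM in Arg and 322 CPM in Control. Cd200 was therefore higher in Arg in T cells and mature dendritic cells as well, so the difference was not limited to members. Whether it was larger in members than in other cells was not tested.

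The remaining genes named by rule on the higher side were Sfi1, Cmc1, Fuca1, AC149090.1, Rilpl1, Pkp3 and Acsl1, with folds between 1.66 and 2.17. Each was also higher in Arg in all other barcodes, with log2 ratios there from 0.06 for Rilpl1 to 1.46 for Sfi1. Sfi1, a centrosomal gene with many partial copies, stood there at 99.98 CPM in Arg and 33.2 CPM in Control. The log2 ratio of Pkp3 was 0.73 in members and 0.69 in all other barcodes. On the lower side the remaining genes were Gm47283, Dyrk3 and Gm20513. Gm47283 stood at 50.4 CPM in Arg members and 198 CPM in Control members, and was also lower in Arg in all other barcodes, at 69.3 and 182 CPM, and in type 1 and type 2 conventional dendritic cells, with log2 ratios of -1.97 and -1.89. Dyrk3, a kinase that dissolves stress granules, stood at 32.6 CPM in Arg members and 115 CPM in Control members (fold 0.283, 0.210 to 0.376), against 2.72 and 4.498 CPM outside.

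Surface receptors and homing genes were counted next. Of 22 regulatory receptors 21 were measured, 12 higher and 9 lower, with 2 past 1.5-fold higher, Cd200 and Cd300c (9.52%, against 3.0% of all genes), and 1 lower (4.76%, against 3.97%), Clec12a, an inhibitory lectin, at 237 CPM in Arg members and 366 CPM in Control members. Without the mixed members 1 was past higher, Cd200, and none past lower. Of 22 chemokine receptor and adhesion genes 18 were measured, 7 higher and 11 lower, with 1 past 1.5-fold lower. This was Ccr1, an inflammatory chemokine receptor, at 15.3 CPM in Arg members and 31.8 CPM in Control members. In Control 1 member held 15 of the 53 Ccr1 UMIs, and 9.50% of Arg and 9.32% of Control members held a UMI. Outside the members Ccr1 stood at 154 and 97.9 CPM. Itga4, the alpha 4 integrin, stood at 344 CPM in Arg members and 489 CPM in Control members, and Gpr183, the oxysterol receptor that positions dendritic cells, at 274 and 399 CPM. Of 29 ligands and cytokines that act on T cells 12 were measured, 8 higher and 4 lower, with 2 past 1.5-fold in each direction, Cd200 and Gzmb higher and Tnf and Il12a lower, and a median of 0.29. Without the mixed members 10 were measured, 7 higher and 3 lower, and Gzmb, at 15.7 CPM in Arg and 8.22 CPM in Control, was under the floor. Cd47, the signal that inhibits phagocytosis, stood at 1558 CPM in Arg members and 1236 CPM in Control members (fold 1.26, 1.19 to 1.33).

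Genes of arginine use and of the amino acid starvation response, which the diet made of interest, showed no common shift. Of 31 arginine and polyamine genes 19 were measured, 13 higher and 6 lower, none past 1.5-fold, with a median of 0.07. Slc7a1, the main cationic amino acid transporter, stood at 37.5 CPM in Arg members and 38.4 CPM in Control members. Slc38a9, the lysosomal arginine sensor, stood at 86.9 and 60.7 CPM (fold 1.43, 1.12 to 1.85). Slc38a9 was also higher in Arg in all other barcodes, at 23.8 CPM in Arg and 15.9 CPM in Control. Its log2 ratio was 0.49 in members and 0.47 in those barcodes. Odc1, which starts polyamine synthesis, stood at 97.3 CPM in Arg members and 142 CPM in Control members. Of 26 starvation genes 15 were measured, 7 higher and 8 lower, with 3 past 1.5-fold lower (3 of 15, against 3.97% of all genes) and a median of -0.16; without the mixed members the median was -0.01. Those 3 were Atf3, Ppp1r15a and Slc7a11. For Slc7a11, the cystine transporter, 37 of the 64 Control UMIs lay in 1 member, the levels were 4.57 CPM in Arg and 2.24 CPM in Control without the mixed members, and the other barcodes held 106 and 38.7 CPM. Atf4, the factor that drives this response, stood at 114 CPM in Arg members and 165 CPM in Control members. Asns, Trib3 and Chac1, usual targets of ATF4, were under the floor of 20 CPM.

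Respiratory and secretory lists leaned slightly up. All 30 nuclear oxidative phosphorylation genes were measured and all were higher in Arg, none past 1.5-fold, with a median of 0.19, whereas 56.5% of all measured genes were higher. Ndufa4 stood at 571 CPM in Arg members and 435 CPM in Control members (fold 1.31, 1.19 to 1.44). All 33 endoplasmic reticulum and secretory genes were measured, 30 higher and 3 lower, 1 past 1.5-fold, with a median of 0.19; Ssr4, a translocon-associated subunit, stood at 613 CPM in Arg members and 440 CPM in Control members. Of 24 cholesterol synthesis genes 18 were measured, 3 higher and 15 lower, none past 1.5-fold, with a median of -0.19, beside a median of -0.53 in all other barcodes. Of 14 measured mTORC1 and growth genes 7 were higher and 7 lower, 1 of them past 1.5-fold lower. Of 13 measured cytokine receptors 8 were higher and 5 lower, none past 1.5-fold.

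Variation among members was ranked by residual variance. By Pearson residual variance, which is near 1 for counting noise, the median over 3258 genes was 1.38 in Arg and 1.37 in Control. Ccl4 reached 87.3 in Arg and 79.8 in Control with no member holding over 3.47% of its UMIs, and Tnf reached 24.2 and 16.9. Slpi, a secreted protease inhibitor, reached 30.4 in Arg and 17.8 in Control, with at most 5.54% of its UMIs in 1 member. Spp1, S100a9, Mt1 and G0s2 had much of their UMIs in single barcodes: 1 member held 53.5% of the Spp1 UMIs in Arg and another 56.2% in Control.

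**Figure D5:**
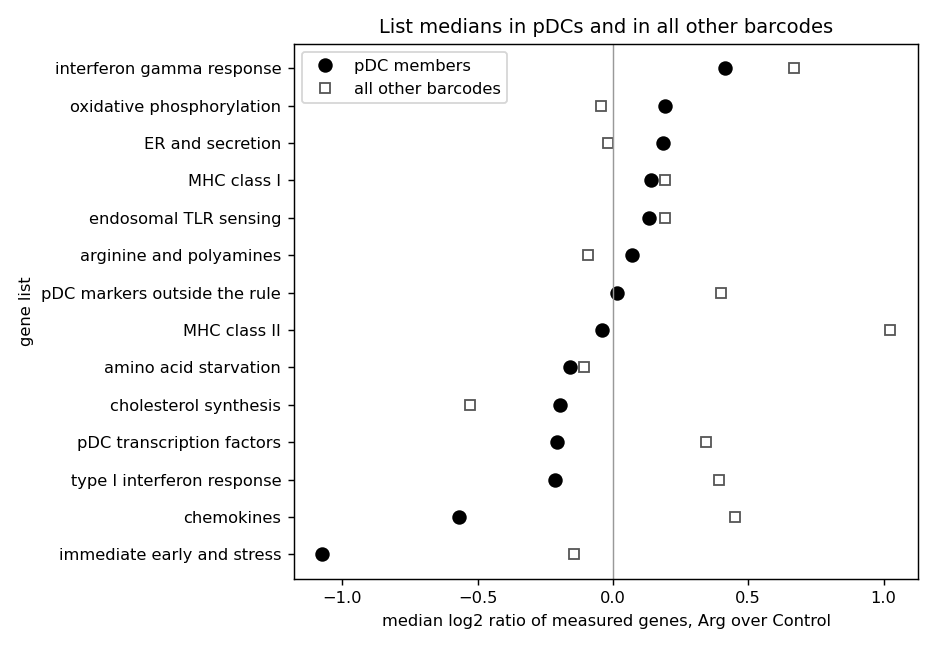
Median log2 ratio of Arg over Control (x axis) over the measured genes of 14 lists (y axis), in pDC members (filled circles) and in all other barcodes (open squares). Immediate early genes lie at -1.07 in members and -0.14 outside, and MHC class II genes at -0.04 in members and 1.02 outside.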

How the data were processed

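Droplet single-cell RNA-seq of CD45-positive tumour cells was analysed in 2 libraries, Arg and Control, 1 per diet. The authors deposited raw UMI counts per gene and barcode for 32285 genes; Cell Ranger 7.0.1 made them per the file headers, while the submitters' processing notes give Cell Ranger 2.2.2 and GRCm38. The deposited counts held at least 500 UMIs per barcode and were neither normalised nor annotated. Libraries held 155927693 UMIs over 14540 barcodes in Arg and 191505551 over 14343 in Control, and 13875 and 13487 barcodes were kept.

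Members were gated as described in the report, their counts were summed per library, and levels are CPM with exact Poisson 95% intervals; shares have exact Clopper-Pearson intervals. PCR duplicates are removed by UMIs, and intervals and limits for a count of 0 (3 counts) cover counting error only. Ratios are log2 after adding 5 CPM, and fold intervals are exact and conditional on the summed counts. With 1 library per diet there is no test and no p-value. Shares with a UMI and shares per member were taken after thinning to 2000 UMIs. Doublets were called with Scrublet in scanpy 1.11.5 and kept; scaling factors came from edgeR 4.0.16. The other classes were gated on marker counts in the same way. The ratio and its interval were tested on simulated counts with Poisson noise only. The interval assumes that same noise, so the simulation could not test it for genes that vary more between members.

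Genes named were the 12 highest and 12 lowest ratios among genes averaging 50 CPM, with a UMI in 10% of members of the higher library, a level there at least that of other barcodes, and no member over 20% of UMIs; the 20 genes highest over other barcodes; the 15 most variable genes; and list genes whose role is described. The members and the lists were chosen with earlier results of these data known. Alternatives changed the gate, doublets, mitochondrial limit, depth, scaling, pseudocount and floors. Sequences are from RefSeq.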

Additional observations from a re-analysis of the deposited data

Results flagged for a closer look

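In 8 gene lists the median log2 ratio of Arg over Control had opposite signs in pDC members and in all other kept barcodes, by more than 0.1 on each side. Neither side has replicates, both come from the same 2 libraries, and the difference was not tested. The other barcodes are a mix of cell types in unequal proportion, with 1296 macrophages in Arg and 2819 in Control.

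Several of these lists describe the members' own programs: pDC transcription factors had a median of -0.21 in members and 0.34 outside, genes induced by type I interferon -0.22 and 0.39, chemokines -0.57 and 0.45, and lymphoid genes -0.12 and 1.64. The transitional dendritic cell list had -0.18 in members and 0.56 outside. The other lists mark other cell types, with -0.14 in members and 0.36 outside for monocyte genes, -0.12 and 0.52 for neutrophil genes, and 0.64 and -1.31 for stromal genes. In the stromal list 411 of the 419 Col1a1 UMIs of Arg members lay in 1 member.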

How the results depend on the processing

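No paired analysis was possible because each diet had 1 library. Of 448 recomputed values that answer a comparison, 427 kept their direction and stayed close, and of 1046 others 921 did. As a share of gated dendritic cells the members' ratio was 0.854. Genes past 1.5-fold, 55 higher, 128 lower and 183 either way, were 245, 228 and 473 after thinning members to 2000 UMIs, 186, 246 and 432 with a floor of 20 CPM, and 24, 85 and 109 with a floor of 100 CPM. The chemokine median, -0.57, was 0.48 with no exclusion of other lineages and -0.030 with no floor. The immediate early median, -1.07, was -0.72 with no exclusion of other lineages. The median of mitochondrially encoded genes, -0.01, was 0.064 without mixed members and 0.12 after thinning. The cell cycle median, -0.41, was -1.33 without Scrublet doublets, 0.089 without high-UMI members, 0.093 without mixed members, 0.034 with every cell weighing the same and -0.052 after thinning; 1 Control member held 164 of the 220 Ube2c UMIs. The stromal marker median, 0.64, was -0.053 without high-UMI members and -0.011 without mixed members; leaving out mixed members was chosen after seeing the data. The ratio of shares of members with a Cd200 UMI, 2.46, was 1.23 without thinning. The causes were not tested. Scaling moved the median of all genes by under 0.1, to between 0.02 and 0.05. At the floor of 20 CPM a gene rests on few UMIs per library.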

Other observations

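Some members' values stand outside the comparisons above. The NK and T cell markers in mixed members were uneven between libraries: 9 Arg members and 0 Control members also passed the gate for NK cells, and 2 Arg and 2 Control members passed that for neutrophils. Among survival genes, Bcl2a1b and Bcl2a1d, near-identical copies of an anti-apoptotic BCL2 relative whose reads may be split, stood at 57.3 and 44.0 CPM in Arg members, against 19.2 and 14.4 CPM in Control members; without the mixed members they stood at 37.3 and 32.0 CPM in Arg, against 8.22 and 12.7 CPM in Control. Mcl1, another anti-apoptotic relative, stood at 300.3 CPM in Arg members and 473 CPM in Control members, and Pmaip1, the pro-apoptotic NOXA, at 177 and 281 CPM. Cd274, encoding PD-L1, stood at 100.8 CPM in Arg members and 108 CPM in Control members, and Lag3, an inhibitory receptor, at 61.3 and 46.8 CPM.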
